A study of Mus musculus with 15 samples.

Results

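The genes described here are 36 mouse genes of glucose uptake, glycolysis, lactate handling and pyruvate entry into mitochondria. They were chosen by name from the known pathway and taken in pathway order from the 41388 genes listed in the gene count tables of the series. A20 is a B-cell lymphoma line of BALB/c mice. Messenger RNA was sequenced from A20 parental cells with wild-type *Foxp1* and from 4 *Foxp1* CRISPR lines, each with 3 replicates collected from separate passages, which made 15 libraries. E6.1 and E6.2 were made with a guide to exon 6 of *Foxp1*, and E7.1 and E7.2 with a guide to exon 7. In the authors' Western blots, exon 6 targeting depleted full-length Foxp1 protein in most clones, and the larger of the short isoforms. Exon 7 targeting depleted every isoform that A20 cells usually make. Each line was grown from a single electroporated, GFP-sorted cell and carried a frameshift with a premature stop codon, so each is 1 clone and a difference between clones cannot be told apart from a difference between the cells they were grown from. The parental cells did not pass through cloning, and the same 3 parental libraries served every clone.

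Glycolysis splits glucose into pyruvate in the cytosol and yields ATP and NADH. Pyruvate is then either reduced to lactate, which leaves the cell, or oxidised in mitochondria by the pyruvate dehydrogenase complex, which pyruvate dehydrogenase kinases switch off. Proliferating lymphocytes and lymphoma cells are known for high glucose use with lactate release, and many genes of the pathway are induced by the transcription factor HIF-1 when oxygen is low.

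The libraries held between 26328054 and 39181530 counts on genes (median 35586010). Levels are given as counts per 1000000 counts (CPM), scaled by TMM factors that put libraries on a common scale, and n is 3 libraries per line throughout. *Foxp1* itself, the targeted gene, had 102, 166 and 147 CPM in parental cells, 99.5 to 109 CPM in the 6 E6 libraries and 37.1 to 64.3 CPM in the 6 E7 libraries. Its message fell by 1.29 on the log2 scale in E7.1 (edgeR, adjusted p = 0.00688) and by 1.69 in E7.2 (adjusted p = 0.00116), and the E6 values (-0.41 and -0.39) did not pass the test. All 7 B-cell markers checked were detected, with a summed level of 923 to 1517 CPM, whereas the 4 T-cell markers summed to at most 0.118 CPM and the 2 erythroid markers to at most 0.204 CPM. The 4 myeloid markers summed to 0.421 to 8.1 CPM and the 3 fibroblast markers to 0.0255 to 0.786 CPM. Replicate 3 of E6.2 and replicate 3 of E7.2 stood apart from their lines, with a correlation of 0.426 between their deviations over all tested genes. Within the pathway they deviated alike for some genes and oppositely for others. Against the mean of the other 2 replicates, *Gpi1* was at 2.77 times in E6.2 and 1.78 times in E7.2. *Pkm* was at 1.86 and 0.446 times, and *Ldha* at 1.44 and 0.51 times. The counts of called genes are also given without these 2 libraries, a choice made after seeing the data. Counts of libraries that do not overlap, the neighbouring gene lists and statements that a single gene was not called rest on all 15 libraries unless the text says otherwise.

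Of the 36 genes, 32 passed the filter on low counts and were tested among 13904 genes. *Hk3*, *Ldhb*, *Pdk2* and *Pdk4* did not. *Ldhb*, which makes the heart-type subunit of lactate dehydrogenase, and *Pdk4* had 0 counts in all 15 libraries, where 3 counts, the limit that a count of 0 allows, correspond to 0.0751 to 0.118 CPM depending on the library. *Pdk2* reached at most 0.0268 CPM and *Hk3* at most 0.212 CPM. These limits cover counting error only.

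Every gene of the pathway that differed between the exon 7 and exon 6 clones was higher in the mean of the E7 clones. In the contrast of the mean of the E7 clones with the mean of the E6 clones, 13 of the 32 tested genes were higher and 0 were lower at an adjusted p under 0.05, from 1.24-fold to 2.76-fold. Among all 13904 genes, 6.21% were called higher and 5.85% lower in the same contrast. The median log2 difference was 0.38 over the 32 genes and -0.03 over all genes tested. The 13 genes were *Slc2a1*, *Hk1*, *Pfkl*, *Pfkfb3*, *Aldoc*, *Tpi1*, *Pgam1*, *Eno1*, *Pkm*, *Ldha*, *Pdk1*, *Pdk3* and *Dlat*, and they run from glucose uptake to the pyruvate dehydrogenase complex. Differences were tested by the quasi-likelihood method of edgeR, and p-values were adjusted over all genes by Benjamini-Hochberg. The test takes libraries as replicates, and with 2 clones on each side an exact two-sided permutation of clones cannot go below p = 0.333, so exon and clone cannot be told apart. With the third replicates of E6.2 and E7.2 left out, 23 of the genes were called higher and 0 lower, against 18.5% of all genes called higher. The genes added were *Hk2*, *Gpi1*, *Pfkm*, *Pfkp*, *Pfkfb4*, *Aldoa*, *Gapdh*, *Pgk1*, *Slc16a1* and *Pdhb*. These 2 libraries were chosen after seeing the data. E6.2 replicate 3 was the highest of its line for 25 of the 32 genes (40.8% of all genes). E7.2 replicate 3 was the lowest of its line for 20 (42.3% of all genes). Leaving them out thus raises the difference for many of these genes in advance, and the larger count is no added support. The count of called genes was 6 without E6.1 replicate 1, where 1.68% of all genes were called higher. It was 7 without E6.1 replicate 3, where 1.72% were, and 20 without E6.2 replicate 3, where 13.9% were. *Pfkfb3*, *Pdk3* and *Slc2a1* were called in 7, 8 and 9 of the 15 fits that left out 1 library.

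**Figure D1:**
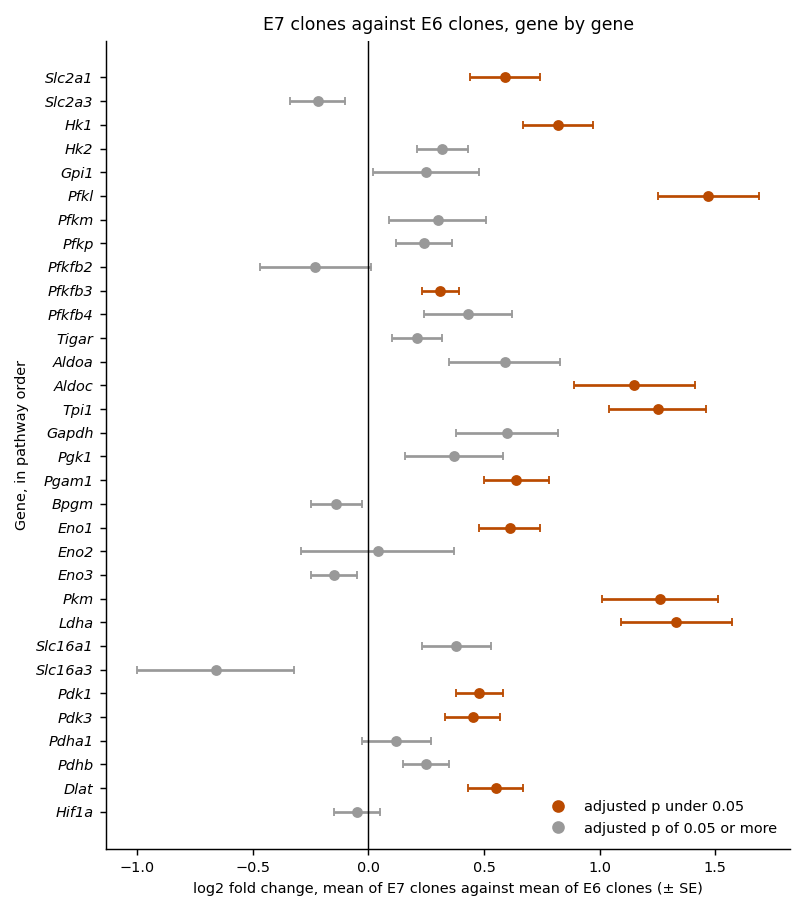
Log2 fold change of the mean of the E7 clones against the mean of the E6 clones (x axis) for the 32 tested genes in pathway order (y axis); points are the fitted values, bars their standard errors, and colour marks an adjusted p under 0.05. The 13 called genes lie to the right of 0, with *Pfkl* farthest at 1.47, and no called gene lies to the left.

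Against parental cells the counts were lower. In E7.1, 4 genes were called higher (*Pfkl*, *Tpi1*, *Pgam1* and *Ldha*) and 0 lower, where 0.396% of all genes were called higher and 0.82% lower. In E7.2, 0 genes were called, where 0.0863% of all genes were called higher and 0.209% lower. In E6.2, 1 gene was lower (*Pdk3*) and 0 higher, where 1.01% of all genes were called lower and 0.165% higher. E6.1 had 0 calls, where 0.0575% of all genes were called higher and 0.266% lower. With the 4 clones pooled against the parental line, 0 genes were called, and 0.0432% of all genes were called higher and 0.46% lower. At an unadjusted p under 0.05, edgeR gave 2 of the 32 genes in E6.1 (6.71% of all genes), 15 in E7.2 (13.3% of all genes) and 8 in the pooled contrast (9.9% of all genes). DESeq2 gave 0, 3 and 0 of the genes after adjustment, where it called 1.11%, 1.83% and 1.28% of all genes. With the third replicates of E6.2 and E7.2 left out, E6.1 and the pooled contrast still had 0 calls, where 0.924% and 1.16% of all genes were called, and E6.2 had 2 genes lower (*Pdk3* and *Pdha1*), where 2.26% were.

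The 4 calls in E7.1 rested on single libraries. They were 0 when any 1 of these was left out: parental replicate 2 or 3, E6.1 replicate 1 or 3, E6.2 replicate 2, E7.1 replicate 1 or 3, or E7.2 replicate 1 or 2. In these fits 0.209% to 0.64% of all genes were called. Only *Pgam1* was called without E6.1 replicate 2 (0.638% of all genes) or without E7.1 replicate 2 (0.459% of all genes). The count rose to 8 without parental replicate 1, where 6.81% of all genes were called, to 9 (1 of them lower) without E6.2 replicate 3, where 7.05% were, and to 7 (1 of them lower) without E7.2 replicate 3, where 4.25% were, against 1.22% with all libraries. With both replicates 3 left out it was 12 higher and 1 lower, where 8.8% of all genes were called higher, and E7.2 then had 7 genes higher (*Gpi1*, *Aldoa*, *Aldoc*, *Tpi1*, *Pgk1*, *Pkm* and *Ldha*), where 0.882% of all genes were called higher. The E7.2 library left out was the lowest of its line for 20 of the 32 genes.

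The median log2 fold change of the 32 genes against parental cells was 0.33 for E7.1 (all genes tested, -0.02), 0.34 for E7.2 (all genes, 0), -0.02 for E6.1 (all genes, 0) and -0.08 for E6.2 (all genes, 0.06). Positive values were fitted for 25 of the 32 genes with E7.1, 23 with E7.2, 15 with E6.1 and 12 with E6.2. All 3 E7.1 libraries lay above all 3 parental libraries for 16 of the 32 genes, where 16.4% of all tested genes did so. For E7.2 this held for 13 genes against 10.8% of all genes, for E6.1 for 2 genes against 11.3%, and for E6.2 for 1 gene against 6.13%. In the contrast of clones, all 6 E7 libraries lay above all 6 E6 libraries for *Slc2a1*, *Pfkl*, *Pfkfb3*, *Tpi1* and *Dlat*, 5 genes, where 1.81% of all genes did so. No gene of the pathway had all 6 below, where 1.75% of all genes did. Both E7 clone means exceeded both E6 clone means for 20 genes, against 21.1% of all tested genes.

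**Figure D2:**
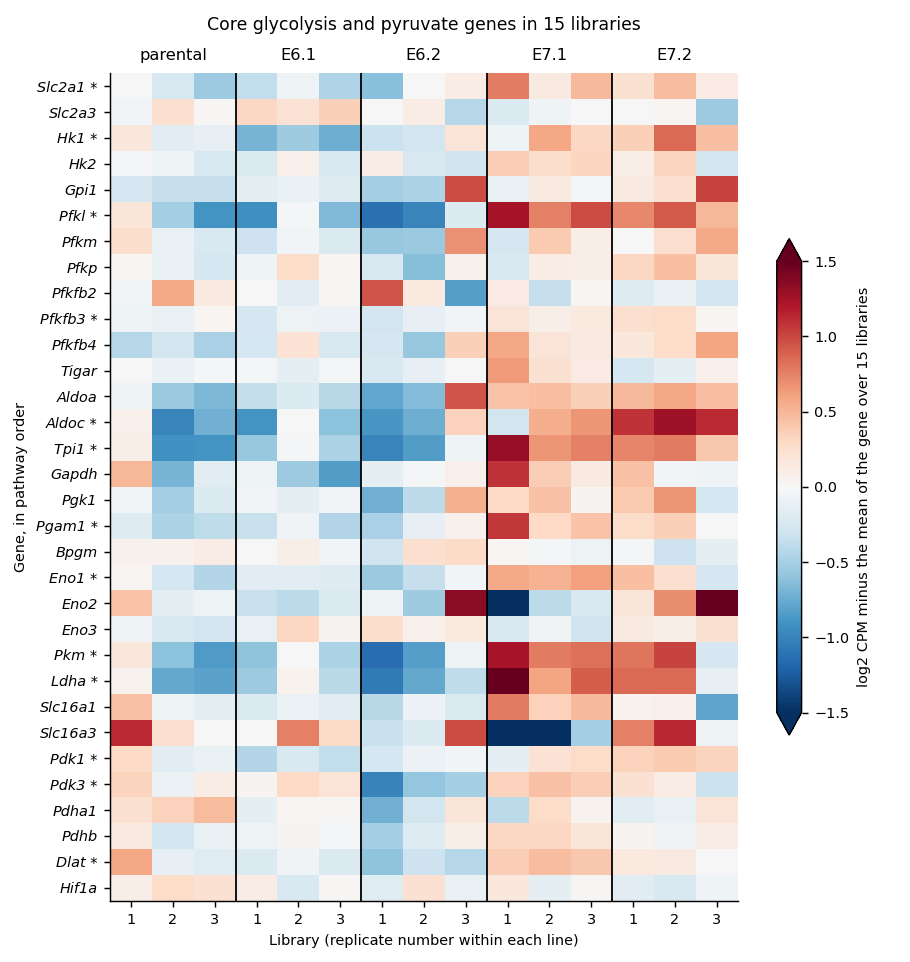
Levels of the 32 tested genes (rows, in pathway order) in the 15 libraries (columns, by line and replicate), as log2 CPM minus the gene's mean over all libraries; an asterisk marks the 13 genes called between E7 and E6 clones. For *Pfkl*, *Tpi1*, *Pkm* and *Ldha* the E7 columns are red, except replicate 3 of E7.2 for *Pkm* and *Ldha*, and parental replicate 1 and E6.1 replicate 2 are paler than the blue columns beside them. Replicate 3 of E6.2 is red for *Gpi1* and *Aldoa*.

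The share of all counts that fell on the 36 genes was 0.413 ± 0.0716% in parental cells (mean ± SD), 0.422 ± 0.0227% in E6.1 and 0.384 ± 0.112% in E6.2. E7.1 had 0.664 ± 0.042% and E7.2 had 0.574 ± 0.148%. The lowest E7.1 library (0.631%) lay above every parental and E6 library, the highest of which was E6.2 replicate 3 at 0.506%. The E7.2 libraries ran from 0.408% to 0.69% and overlapped them. In such bulk samples, fewer cells with a high level and less RNA per cell cannot be told apart.

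The promoters of the 4 genes called in E7.1 were read from RefSeq, because these genes passed the test against parental cells. Of the 36 genes, 35 matched an entry, and *Slc2a3* did not. The 250 bases before each start were searched on both strands for ACGTG, the core of the HIF-1 response element, and for TGTTTAC, a forkhead core. At least 1 ACGTG lay before a start of 17 of the 35 genes (48.6%). Of the 31 that were also tested, 15 had it, against 25.2% of 9488 tested genes with an entry. Counted per promoter rather than per gene, 16.6% of 32851 promoters had it. TGTTTAC was found for *Aldoc* only, 2.86% of the 35 genes, against 2.6% of tested genes and, counted per promoter, 3.17%. A palindromic CACGTG counts on both strands and overlaps ACGTG. The windows of *Pgam1* and of the first *Ldha* start, which hold ACGTG and lie outside annotated exons, are shown 5′ to 3′ on the plus strand of GRCm38.p6 with the matches in capitals. They lie at chr19:41911621-41911870 and chr7:46845554-46845803.
Pgam1: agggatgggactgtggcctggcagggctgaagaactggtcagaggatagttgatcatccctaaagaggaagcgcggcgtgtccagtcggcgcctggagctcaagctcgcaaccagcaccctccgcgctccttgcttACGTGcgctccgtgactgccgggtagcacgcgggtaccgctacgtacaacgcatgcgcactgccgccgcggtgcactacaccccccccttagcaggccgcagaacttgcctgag
Ldha: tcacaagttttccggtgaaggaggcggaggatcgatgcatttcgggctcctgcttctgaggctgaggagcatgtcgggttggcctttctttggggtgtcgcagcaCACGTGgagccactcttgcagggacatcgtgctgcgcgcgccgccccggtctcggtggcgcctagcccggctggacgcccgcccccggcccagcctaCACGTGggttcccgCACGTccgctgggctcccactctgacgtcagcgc
The *Pgam1* window held 1 match and the *Ldha* window 5, counting both strands of each palindrome. The windows of *Pfkl*, *Tpi1* and the second *Ldha* start held no ACGTG on either strand. For these windows the bases shortly after the start were found in an annotated transcript of the gene. For the windows shown they were not. A match describes the sequence, shows no binding and does not tell which factor could bind there.

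The first step is glucose uptake. *Slc2a1* (chr4:119108711-119137330) encodes GLUT1, the basal glucose carrier. Its level was 20.5, 17.5 and 14.1 CPM in parental cells, while clone E6.1 had 16, 19.7 and 15, clone E6.2 had 13.4, 20.7 and 22.3, clone E7.1 had 35, 22.7 and 29 and clone E7.2 had 24.1, 28.4 and 22.5. The lowest E7 library, 22.5 CPM, was just above the highest E6 library, 22.3 CPM, so the groups did not overlap but nearly met. The E7 mean was 0.59 ± 0.15 higher than the E6 mean on the log2 scale (SE, adjusted p = 0.0274). *Slc2a3*, the high-affinity carrier GLUT3, held 58.3 ± 5.48% of the uptake step in parental cells on the per-length scale (CPM divided by the exon length in kilobases, RPKM), the larger share. It ran from 39.7 to 74.4 CPM over all libraries and was not called in any contrast (E7 against E6 -0.22 ± 0.12, adjusted p = 0.219).

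Hexokinases trap glucose as glucose-6-phosphate. *Hk2*, the inducible isoenzyme, made up 89.8 ± 1.11% of hexokinase RPKM in parental cells. *Hk2* had 37.7 to 49.9 CPM in E6 libraries, 55.5 to 60.3 in E7.1 and 38.1 to 57.8 in E7.2, and its difference of 0.32 ± 0.11 between E7 and E6 clones did not pass (adjusted p = 0.0762). *Hk1* (chr10:62268855-62379908), the widely expressed isoenzyme, had 7.71, 6.11 and 6.29 CPM in parental cells, while clone E6.1 had 4.22, 4.71 and 4.13, clone E6.2 had 5.47, 5.65 and 7.79, clone E7.1 had 6.56, 10.2 and 8.5 and clone E7.2 had 8.77, 12.3 and 9.33. The E6.1 libraries were the lowest of all and 1 E7.1 library lay inside the E6.2 range. *Hk1* was 0.82 ± 0.15 higher in the E7 clones (log2, adjusted p = 0.00772). *Gpi1*, which turns glucose-6-phosphate into fructose-6-phosphate, had 242, 245 and 674 CPM in E6.2 and 374, 404 and 692 CPM in E7.2. The third library of each was far above the other 2, and *Gpi1* was not called (0.25 ± 0.23, adjusted p = 0.504).

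Phosphofructokinase commits the sugar to glycolysis, and its liver-type isoenzyme *Pfkl* (ENSMUSG00000020277, chr10:77986947-78010083) showed the largest difference of the pathway between E7 and E6 clones. It had 45.7, 28.3 and 21.6 CPM in parental cells, while clone E6.1 had 21.3, 39.3 and 25.4, clone E6.2 had 18.5, 20.3 and 34.8, clone E7.1 had 95.5, 68.1 and 79.2 and clone E7.2 had 66.3, 76 and 56.9. Every E7 library was above every parental and E6 library, and within the parental line replicate 1 was the highest. *Pfkl* was 1.47 ± 0.22 higher in E7 than in E6 clones on the log2 scale, 2.76-fold (adjusted p = 0.00202), and 1.34 ± 0.3 higher in E7.1 than in parental cells (adjusted p = 0.049). The E7.2 value of 1.06 ± 0.3 did not pass (adjusted p = 0.202). The platelet-type *Pfkp* held 50.8 ± 4.14% of the step's RPKM in parental cells and the muscle-type *Pfkm* 28.9 ± 0.664%, with *Pfkl* at 20.3 ± 4.11%. *Pfkp* (114 to 244 CPM) and *Pfkm* (20.2 to 48.2 CPM) were not called in any contrast with all libraries, and were called higher in E7 than in E6 clones once the third replicates of E6.2 and E7.2 were left out. With all libraries their E7 to E6 differences were 0.24 ± 0.12 and 0.3 ± 0.21.

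Fructose-2,6-bisphosphate activates phosphofructokinase. It is made and broken down by the bifunctional enzymes of *Pfkfb2*, *Pfkfb3* and *Pfkfb4*, of which the *Pfkfb3* product mostly makes it, and is degraded by the product of *Tigar*. *Pfkfb3* (chr2:11471430-11502101) had 26.2, 25.5 and 27.9 CPM in parental cells, while clone E6.1 had 23.1, 26.1 and 25.8, clone E6.2 had 22.6, 25.2 and 26.6, clone E7.1 had 31.4, 29.2 and 30.4 and clone E7.2 had 32.4, 33.3 and 28. The difference was small and the groups did not overlap. It came to 0.31 ± 0.08 on the log2 scale (adjusted p = 0.0331). *Tigar* had the highest RPKM of these genes in parental cells (49.8 ± 1.49% of the 4) and ran from 15.7 to 29.4 CPM, with the highest level in E7.1 replicate 1, and was not called. *Pfkfb2* and *Pfkfb4* stayed under 10 CPM in every library (at most 8.35 and 4.52 CPM) and were not called.

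Aldolase cleaves the 6-carbon sugar into triose phosphates. *Aldoa*, at 97.8 ± 0.425% of the step's RPKM in parental cells, had 538, 384 and 353 CPM in parental cells, while clone E6.1 had 441, 488 and 423, clone E6.2 had 329, 360 and 1081, clone E7.1 had 760, 773 and 722 and clone E7.2 had 787, 839 and 768. Apart from E6.2 replicate 3, which was the highest of all 15 libraries, every E6 library was below every E7 library. *Aldoa* was not called between E7 and E6 clones with all libraries (0.59 ± 0.24, adjusted p = 0.123) and was called once the third replicates of E6.2 and E7.2 were left out. *Aldoc* (chr11:78322968-78327781), the brain-type isoenzyme, had 17, 8.12 and 9.75 CPM in parental cells, while clone E6.1 had 8.69, 16.1 and 10.5, clone E6.2 had 8.82, 9.74 and 20.5, clone E7.1 had 13.3, 23.5 and 25.5 and clone E7.2 had 34.2, 38.8 and 35.1. The 3 E7.2 libraries were the highest of all, while 1 E7.1 library lay inside the E6 range. *Aldoc* was 1.15 ± 0.26 higher in the E7 clones (adjusted p = 0.0156).

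Triose phosphate isomerase, the product of *Tpi1* (ENSMUSG00000023456, chr6:124810586-124814296), interconverts the triose phosphates. *Tpi1* had 153, 76.3 and 77 CPM in parental cells, while clone E6.1 had 96.2, 141 and 103, clone E6.2 had 72, 80.0 and 137, clone E7.1 had 354, 227 and 242 and clone E7.2 had 238, 245 and 190. Every E7 library exceeded every other library, and parental replicate 1, E6.1 replicate 2 and E6.2 replicate 3 were each well above the other 2 of their line. *Tpi1* was 1.25 ± 0.21 higher in E7 than in E6 clones (adjusted p = 0.00482) and 1.43 ± 0.31 higher in E7.1 than in parental cells (adjusted p = 0.04). *Gapdh*, the NADH-producing step, was counted at only 4.03 to 15.3 CPM. Of its 50-base stretches, 82.5% occur exactly in transcripts of other genes, 222 genes in all, and the counting left out reads that align to several places, so its level here is uncertain. It was not called (0.6 ± 0.22 between E7 and E6 clones, adjusted p = 0.0895). *Pgk1*, the first ATP-producing step, had the highest RPKM of the pathway in parental cells (249 ± 40 RPKM) and ran from 401 to 1048 CPM. It was not called (0.37 ± 0.21, adjusted p = 0.239), and 68% of its stretches are shared with other genes.

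Phosphoglycerate mutase is the product of *Pgam1* (ENSMUSG00000011752, chr19:41911871-41918664), which held 91.7 ± 0.799% of the step in parental cells beside *Bpgm*, the enzyme that makes 2,3-bisphosphoglycerate. *Pgam1* had 85.1, 70.1 and 74.6 CPM in parental cells, while clone E6.1 had 77.3, 93.6 and 71.5, clone E6.2 had 69.2, 88.9 and 102, clone E7.1 had 202, 120 and 131 and clone E7.2 had 118, 124 and 96.7. The E7.1 libraries were above all parental and E6 libraries, E7.1 replicate 1 was the highest, and E7.2 replicate 3 lay inside the E6.2 range. It was 0.98 ± 0.2 higher in E7.1 than in parental cells (adjusted p = 0.0387) and 0.64 ± 0.14 higher in E7 than in E6 clones (adjusted p = 0.0149). *Bpgm* stayed between 10.3 and 15.5 CPM and was not called.

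Enolase makes phosphoenolpyruvate. *Eno1* (chr4:150236721-150248879), the ubiquitous isoenzyme, held 87.9 ± 0.716% of the step in parental cells. Its level was 452, 370 and 328 CPM in parental cells, while clone E6.1 had 397, 397 and 388, clone E6.2 had 302, 351 and 431, clone E7.1 had 659, 640 and 679 and clone E7.2 had 607, 526 and 373. The E7.1 libraries stood above all others but E7.2 replicate 3 fell below the parental maximum and inside the E6 range. *Eno1* was 0.61 ± 0.13 higher in the E7 clones (adjusted p = 0.0145), and its E7.1 value against parental cells, 0.78 ± 0.19, did not pass (adjusted p = 0.0568). *Eno2*, the neuronal isoenzyme, was lowest in E7.1 (3.24 to 9.19 CPM) and highest in the third libraries of E6.2 and E7.2 (27.3 and 30.3 CPM), and was not called. *Eno3*, the muscle isoenzyme, ran from 11.8 to 18.1 CPM and was not called.

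Pyruvate kinase yields ATP and pyruvate. *Pkm* (ENSMUSG00000032294, chr9:59656368-59679375) had 574, 333 and 283 CPM in parental cells, while clone E6.1 had 335, 510 and 366, clone E6.2 had 231, 287 and 481, clone E7.1 had 1195, 875 and 902 and clone E7.2 had 889, 1030 and 428. The E7.1 libraries and the first 2 E7.2 libraries were above all others, and E7.2 replicate 3 was not. *Pkm* was 1.26 ± 0.25 higher in the E7 clones (adjusted p = 0.0102), and its E7.1 value of 1.32 ± 0.36 against parental cells did not pass (adjusted p = 0.0731). Its 2 splice forms share 1 gene-level count, so their ratio was not measured here.

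*Ldha* (ENSMUSG00000063229, chr7:46841475-46855627) encodes the lactate dehydrogenase subunit that favours lactate formation, while *Ldhb* was at 0. It had 392, 222 and 216 CPM in parental cells, while clone E6.1 had 258, 391 and 285, clone E6.2 had 181, 222 and 291, clone E7.1 had 1115, 567 and 706 and clone E7.2 had 678, 682 and 347. Every E7.1 library was above all parental and E6 libraries, while E7.2 replicate 3 lay below parental replicate 1. *Ldha* was 1.52 ± 0.33 higher in E7.1 than in parental cells, 2.87-fold (adjusted p = 0.0441), and 1.33 ± 0.24 higher in E7 than in E6 clones (adjusted p = 0.00567). Lactate leaves through monocarboxylate carriers. *Slc16a1* (MCT1) held 94.8 ± 0.957% of the pair's RPKM in parental cells and had 219 to 295 CPM in E7.1, 99.2 to 181 in E7.2 and 156 to 234 in parental cells. It was not called (E7 against E6 0.38 ± 0.15, adjusted p = 0.113). *Slc16a3* (MCT4) had 2.22, 1.89 and 6.12 CPM in E7.1, under all 12 other libraries (6.85 to 19 CPM). Its E7.1 value of -1.89 ± 0.5 did not pass with all libraries (adjusted p = 0.0692), and it was called lower by DESeq2 and once the third replicates of E6.2 and E7.2 were left out.

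**Figure D3:**
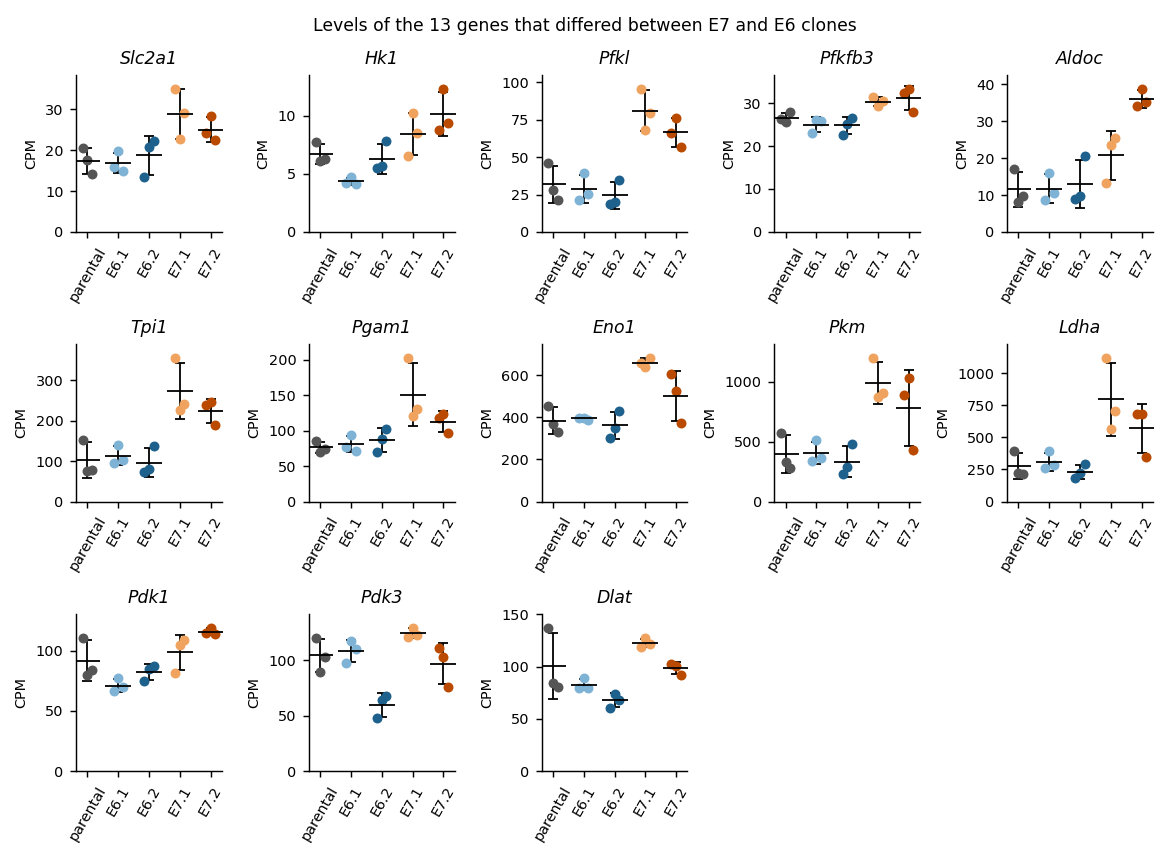
CPM in each library (points) of the 13 genes called between E7 and E6 clones, by line on the x axis, with the mean and SD of 3 libraries as bars; each panel has its own y axis from 0. *Pfkl* and *Tpi1* have every E7 point above every other point, and *Pkm* and *Ldha* have 1 low point in E7.2, at 428 and 347 CPM.

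Pyruvate dehydrogenase kinases phosphorylate and inhibit the pyruvate dehydrogenase complex. *Pdk3* (chrX:93764607-93832201) held 77.5 ± 1.09% of kinase RPKM in parental cells and *Pdk1* 22.5 ± 1.09%. *Pdk3* had 120, 89.6 and 103 CPM in parental cells, while clone E6.1 had 97.7, 117 and 110, clone E6.2 had 47.5, 63.7 and 67.4, clone E7.1 had 121, 129 and 123 and clone E7.2 had 111, 103 and 75.8. The 3 E6.2 libraries were the lowest of all, and the E6.1 libraries lay inside the parental range. The E7.2 mean (96.3 CPM) was below the E6.1 mean (108 CPM). It fell by 0.81 on the log2 scale in E6.2 (SE 0.17, adjusted p = 0.0316), was called in 5 of 9 alternative settings and in 6 of 15 fits that left out 1 library, and was 0.45 ± 0.12 higher in E7 than in E6 clones (adjusted p = 0.029). The call in E6.2 was lost without parental replicate 1 or 3, any E6.1 library, E6.2 replicate 1, E7.1 replicate 2 or 3, or E7.2 replicate 2. *Pdk1* (chr2:71873224-71903858), a known HIF-1 target, had 111, 80.1 and 84.1 CPM in parental cells, while clone E6.1 had 66.4, 77.1 and 69.8, clone E6.2 had 75.1, 84.8 and 87.7, clone E7.1 had 81.9, 105 and 109 and clone E7.2 had 115, 119 and 114. The 3 E7.2 libraries were the highest, and 1 E7.1 library lay inside the E6.2 range. *Pdk1* was 0.48 ± 0.1 higher in the E7 clones (adjusted p = 0.0135).

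The complex itself was followed by its E1 subunits *Pdha1* and *Pdhb* and its E2 subunit *Dlat* (chr9:50634633-50659780). *Dlat* had 137, 84.4 and 80.9 CPM in parental cells, while clone E6.1 had 79.3, 88.9 and 79.7, clone E6.2 had 60.6, 74 and 68.3, clone E7.1 had 119, 127 and 122 and clone E7.2 had 102, 101 and 91.7. Every E7 library was above every E6 library, and parental replicate 1 was the highest of all. *Dlat* was 0.55 ± 0.12 higher in the E7 clones (adjusted p = 0.0143). *Pdhb*, at 58.7 ± 1.83% of the RPKM of the 3 genes in parental cells, ran from 91.7 to 161 CPM and was not called (0.25 ± 0.1, adjusted p = 0.12). *Pdha1* had 128 to 152 CPM in parental cells and 66.3 to 132 CPM in the clones, with negative values in all 4 (from -0.57 in E6.2 to -0.35 in E7.1), and was not called in any contrast with all libraries. It was called lower in E6.2 once the third replicates of E6.2 and E7.2 were left out. *Hif1a*, which encodes the oxygen-regulated HIF-1 subunit, had 302 to 341 CPM in parental cells and 240 to 329 in the clones. It was not called, with -0.05 ± 0.1 between E7 and E6 clones (adjusted p = 0.776), and its control acts largely on the protein, which was not measured.

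**Figure D4:**
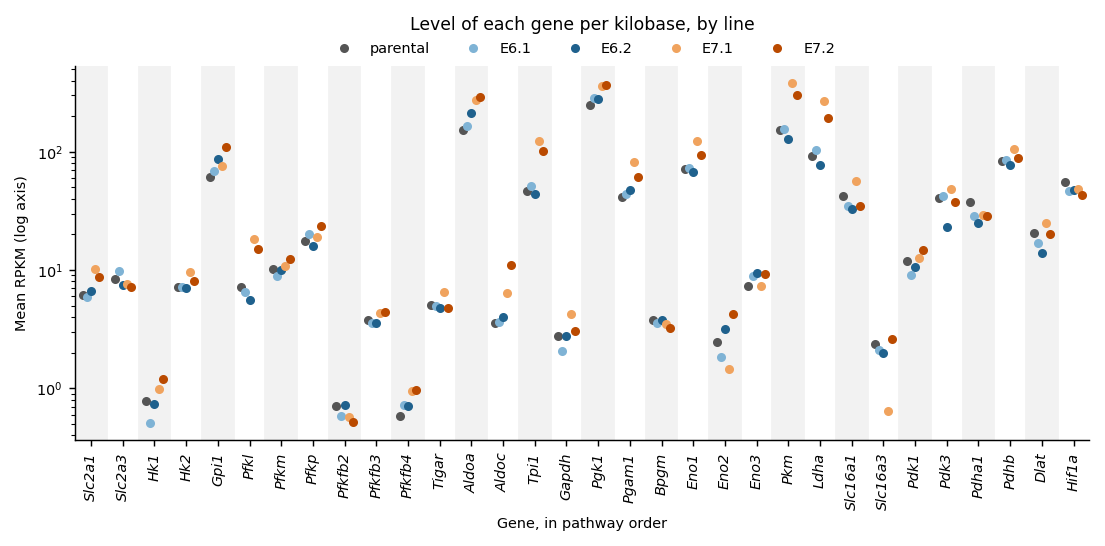
Mean RPKM (log y axis) of 32 genes by line (colour), in pathway order; *Hk3*, *Ldhb*, *Pdk2* and *Pdk4*, at or near 0, are left out. *Pgk1*, *Aldoa* and *Pkm* exceed 100 RPKM in parental cells, and the E7 points are the upper ones for *Pfkl*, *Tpi1*, *Pgam1*, *Eno1*, *Pkm* and *Ldha*.

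Per kilobase, the steps differed widely in level. In parental cells *Pgk1*, *Aldoa* (154 ± 36.1 RPKM) and *Pkm* (153 ± 59.9 RPKM) were the 3 genes over 100 RPKM, followed by *Ldha* (92.8 ± 33.6 RPKM). The spreads of *Aldoa*, *Pkm* and *Ldha* overlapped. The hexokinase and phosphofructokinase steps were lower, with *Hk2* at 7.21 ± 0.588 RPKM and *Pfkp* at 17.5 ± 1.76 RPKM. The levels rest on uniquely placed reads, and 13 of the 36 genes share over 10% of their 50-base stretches with other genes. These include *Eno1* at 72.2%, *Pgam1* at 41.5%, *Pkm* at 34.4% and *Ldha* at 16.6%, whereas *Tpi1* shares 7.5%, *Pfkl* 0.1%, and *Aldoc*, *Pdk1*, *Pdk3* and *Dlat* share none.

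Among the 4 clones, 11 of the 32 genes differed in a joint test (34.4%, against 8.26% of all genes), namely the 13 genes above without *Slc2a1* and *Pfkfb3*. With those 2 libraries left out this count was 23, against 29.9% of all genes. Leaving out 1 library gave from 4 genes, without E6.1 replicate 1 or 3 (3.58% and 3.15% of all genes called), to 22, without E6.2 replicate 3 (22.5% of all genes). The 2 E7 clones were not alike in every gene. *Aldoc* averaged 20.8 ± 6.58 CPM in E7.1 and 36 ± 2.41 in E7.2, *Eno2* 6.89 ± 3.2 and 20 ± 9.32, and *Slc16a3* 3.41 ± 2.35 and 13.9 ± 5.41. *Ldha* averaged 796 ± 285 CPM in E7.1 and 569 ± 192 in E7.2, whose ranges overlapped. No test between the 2 E7 clones was run.

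Single replicates were the highest or the lowest of their line for many of the 32 genes. Parental replicate 1 was the highest of its line for 25 of the 32 genes, where it was highest for 40.3% of all tested genes, and so was E6.1 replicate 2 (25 genes, 37.6% of all genes) and E6.2 replicate 3 (25 genes, 40.8%). In E7.1, replicates 1, 2 and 3 were the highest for 16, 10 and 6 genes, against 43.9%, 33.5% and 22.7% of all genes. In E7.2 they were the highest for 5, 18 and 9 genes, against 26.7%, 27.9% and 45.3%. E6.2 replicate 1 was the lowest of its line for 25 genes, against 37.1% of all genes. E7.2 replicate 3 was the lowest for 20 genes, against 42.3%, and held *Pkm* at 0.446 times, *Ldha* at 0.51 times and *Slc16a1* at 0.551 times the mean of the other 2 libraries, but *Gpi1* at 1.78 times and *Eno2* at 2.04 times. E6.2 replicate 3 held *Aldoa* at 3.14 times, *Eno2* at 3.09 times and *Gpi1* at 2.77 times the mean of the other 2. What set these libraries apart was not tested.

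**Figure D5:**
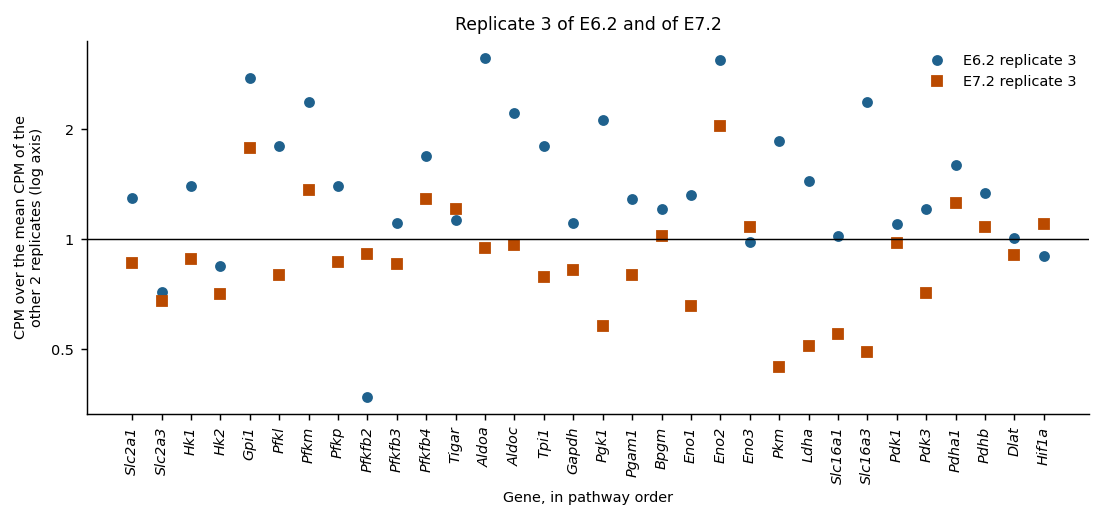
Ratio of each tested gene's CPM in replicate 3 to the mean CPM of the other 2 replicates of its line (log y axis), for E6.2 (circles) and E7.2 (squares), with genes in pathway order. Both libraries lie above 1 for *Gpi1*, *Pfkm* and *Eno2*, and they part for *Pgk1*, *Pkm*, *Ldha* and *Slc16a3*, where E6.2 is above 1 and E7.2 below.

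Neighbouring pathways were followed by lists chosen by name, and their counts between E7 and E6 clones stand beside the 6.21% of all genes called higher and the 5.85% called lower in that contrast. In the pentose phosphate pathway, which branches from glucose-6-phosphate to make NADPH and ribose, 3 of 10 tested genes were higher in E7 than in E6 clones and 0 lower. These were *G6pdx* (0.89 ± 0.17, adjusted p = 0.00857) and *Pgd* (0.75 ± 0.18, adjusted p = 0.0192), its NADPH-making dehydrogenases, and *Prps2* (0.65 ± 0.18, adjusted p = 0.0331), which makes phosphoribosyl pyrophosphate. *Pgd* was also higher in E7.1 than in parental cells (1.15 ± 0.25, adjusted p = 0.042). Of 17 citric acid cycle genes, 6 were higher and 0 lower (*Mdh1*, *Fh1*, *Idh3a*, *Ogdh*, *Sdha* and *Suclg1*, from 0.36 to 0.69), and the median of the list was 0.35. Of 8 tested genes around pyruvate entry, 2 were higher (*Pdp2*, a phosphatase that reactivates pyruvate dehydrogenase, at 0.53, and *Pcx*, pyruvate carboxylase, at 0.46) and 0 lower, with a median of 0.04.

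Of 15 tested isoenzymes and side branches, 3 were higher (*Gpd1l* at 0.94, *Pgm1* at 0.79 and *Slc2a6* at 0.79) and 1 lower (*Slc2a5*, the fructose carrier, at -1.53 and at most 1.48 CPM). *Gpd1l*, related to glycerol-3-phosphate dehydrogenase, was also the sole gene of these lists lower in E6.1 than in parental cells apart from *Aldoart2*, an aldolase retrogene with 0 counts in E6.1. Its level was 100, 105 and 116 CPM in parental cells and 45.6, 60.7 and 47.6 in E6.1, a fall of 1.06 on the log2 scale (adjusted p = 0.00208). *Aldoart2* was at 0.363 to 0.961 CPM in parental cells, and was also called lower in E6.2 (0 to 0.0601 CPM) and in the pooled clones.

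Of 11 tested HIF-1 responsive genes outside the pathway, 3 were higher in E7 than in E6 clones and 0 lower (*Ankrd37* at 1.17, *Bnip3* at 0.83 and *Higd1a* at 0.47), with a median of 0.03 for the list. Of 6 tested genes that control HIF-1, *Egln1*, an oxygen sensor, was higher at 0.44 and *Vhl*, which marks HIF-1 for destruction, lower at -0.4. Of the 6 tested near-identical copies, 4 were higher, among them *Ldha-ps2* (1.33 ± 0.26) and *Pgam1-ps2* (0.68 ± 0.17), processed copies of *Ldha* and *Pgam1* at no more than 8.17 and 5.57 CPM. *Ldha-ps2* was also higher in E7.1 than in parental cells (1.81 ± 0.37, adjusted p = 0.0359). *Pgk1-rs7*, at 11.1 and 18.2 CPM in the first libraries of E7.1 and E7.2 and at most 2.27 CPM in the 13 others, was called at 2.43 ± 0.65. *Aldoart2* was the fourth. B-cell markers moved in the same contrast, *Cd79a* (1.08) and *Ms4a1* (0.44) upward and *Blnk* (-0.5) downward among 7 tested. The sole fibroblast marker tested, *Pdgfrb*, at no more than 0.756 CPM, was lower (-2.54). The part of these markers in the differences of the pathway was not tested.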

How the data were processed

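The authors aligned reads with HISAT, handled alignments with SAMtools, and counted fragments per gene with featureCounts 1.5.0 on GRCm38 (mm10) gene models, per the file headers and labels; other aligner settings are not given in the sources used here. The deposited values are raw counts per gene, with strand ignored and reads of several alignments or several genes left out. The 36 genes and all lists were chosen with earlier results of these data known. The 92 spike-in rows held 0 counts and were dropped.

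Counts of the 15 libraries were fitted together in edgeR 4.0.16 (R 4.3.3) after TMM scaling and filterByExpr, which kept 13904 genes, by the quasi-likelihood test with Benjamini-Hochberg adjustment per contrast. A call is an adjusted p under 0.05, with no fold limit. CPM used TMM-scaled totals, and RPKM divided CPM by the exon length in the files. The contrasts were each clone, the mean of the clones, E7 against E6 clones, and any difference among clones. Replicates came from separate passages, and no 2 libraries of the same line agreed within sampling noise. On simulated counts for 13904 genes, 113 of 200 changed genes were called in E7.1 against parental. Genes were named by rule: all 36 in pathway order, every library for called genes, the isoenzyme with the highest parental RPKM per step, and called list genes. Gene models were GENCODE M21. DESeq2 1.42.0 and other settings served as alternatives. Figures were drawn with matplotlib 3.10.9.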

Additional observations from a re-analysis of the deposited data

Results flagged for a closer look

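The effect against parental cells differed between the exon 7 and exon 6 clones for 13 genes by the test of that difference itself (edgeR's quasi-likelihood test, adjusted p under 0.05). The mean of the E7 clones was above the mean of the E6 clones in each. The test takes libraries, not clones, as replicates, so exon and clone cannot be told apart. For *Pdk3* the single clones did not separate by exon, since E7.2 averaged 96.3 CPM and E6.1 averaged 108 CPM. On the log2 scale the differences were 1.47 for *Pfkl*, 1.33 for *Ldha*, 1.26 for *Pkm*, 1.25 for *Tpi1*, 1.15 for *Aldoc*, 0.82 for *Hk1*, 0.64 for *Pgam1*, 0.61 for *Eno1*, 0.59 for *Slc2a1*, 0.55 for *Dlat*, 0.48 for *Pdk1*, 0.45 for *Pdk3* and 0.31 for *Pfkfb3*. Lines of 3 libraries are too small for a test of single outlying libraries, so none was made.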

How the results depend on the processing

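Over 432 alternative fits of the called log2 fold changes, 332 stayed past the threshold, 100 did not, and 0 changed sign. *Pfkl*, *Tpi1*, *Pkm* and *Ldha* were called between E7 and E6 clones in all 9 alternative settings and all 15 fits that left out 1 library, whereas *Pfkfb3* was called in 6 of 9 and 7 of 15. The count of 13 between E7 and E6 clones became 5 with a 2-fold threshold and 12 with the replicate block. Of all genes, 3.24% and 10.1% were then called, against 12.1% in the main fit. DESeq2's Wald test gave 8 genes for E7.1 (8.32% of all genes) and 3 for E7.2 (1.83%). Its likelihood ratio test gave 17 among the 4 clones (22.3%). The main fit called 1.22%, 0.295% and 8.26% of all genes there. With no filter on low counts E7.2 had 1 gene, where 0.246% of all genes were called. The offset for gene length and GC content left 1 gene in E7.1 (*Pfkl*) and 0 in E6.2. It called 0.741% and 1.17% of all genes there. *Pdk3* in E6.2 was also not called, a count of 0, with only the libraries compared, with the 2-fold threshold, and with the replicate block. These settings called 0.34%, 0.949% and 0.971% of all genes in E6.2. Leaving out 1 library at a time gave 0 in E6.1, 0 to 1 in E6.2, 0 to 9 in E7.1 and 0 to 4 in E7.2. Of all genes, these fits called 0.195% to 0.481%, 0.584% to 1.59%, 0.209% to 7.05% and 0.0972% to 1.33%, in that order. For the pooled clones the count was 0 (0.181% to 0.689% of all genes). Between E7 and E6 clones it was 6 to 20 (2.77% to 26.8%), and among clones 4 to 22 (2.92% to 22.5%). Leaving out replicate 3 of both E6.2 and E7.2, chosen after seeing the data, gave 2 in E6.2, 13 in E7.1, 7 in E7.2, 23 between E7 and E6 clones and 23 among clones. The causes were not tested.

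Equal replicate numbers were not taken as pairs, since only 11 of 30 pairs of equal number had a correlation of deviations over 0.1 (range -0.124 to 0.426, mean 0.0531, against a mean of -0.0249 for unequal numbers). Between E6.2 and E7.2 all 3 exceeded it (0.174, 0.276 and 0.426), though replicate 2 of E6.2 correlated more with replicate 1 of E7.2 (0.311). The replicate block changed the calls of *Pfkl* in E7.1 (3 genes in place of 4, with 1.17% of all genes called), *Pdk3* in E6.2 and *Pfkfb3*. It gave 10 genes among clones, where 7.01% of all genes were called. Depth limits *Hk3*, *Ldhb*, *Pdk2* and *Pdk4*, and shared sequence limits *Gapdh*.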
